A study of Mus musculus with 9 samples.

Results

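The mouse HoxB cluster was followed here through the 9 members Hoxb1, Hoxb2, Hoxb3, Hoxb4, Hoxb5, Hoxb5os, Hoxb6, Hoxb7 and Hoxb9. Members were taken by name, as every probe set whose annotated symbol was 1 of the 9. That gave 11 probe sets out of 45101 on the array, and 9 genes out of 18193 with a probe set of their own. Hoxb3 and Hoxb4 had 2 probe sets each and the other members 1 each. All 9 genes lie on chromosome 11 in the RefSeq annotation, where Hoxb5os, a long non-coding RNA named as antisense to Hoxb5, overlaps Hoxb5 and Hoxb6, and Hoxb3 overlaps Hoxb4.

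Expression was measured in 3 groups with 3 arrays each. All cells were of the line Ainv15 with a Dox-inducible Cdx2-V5 construct, so ES cells and motor neuron cultures carried the construct as well. The Cdx2 and FGF cultures were collected on day 5. From day 2 these had been kept in retinoic acid (all-trans, 1 µM) with a hedgehog agonist (0.5 µM). A pulse of doxycycline lasting 6 to 8 hours followed on day 3, at 2 µg/ml, and bFGF was given at 100 ng/ml. Motor neuron cultures, also at day 5, had received retinoic acid and the hedgehog agonist at the same day 2 doses, with no doxycycline or FGF in their label. The ES cells were taken at day 0, untreated, from culture on mitomycin-C-treated fibroblasts. Doxycycline and FGF were given together, and the protocol also names lower later doses of retinoic acid and hedgehog agonist without saying for which cultures, so that the parts of these agents cannot be told apart. The line is a single one, and the labels do not say whether the 3 arrays of a group came from separate cultures, so the p-values reflect how much these arrays vary, and that variation may be technical.

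Hox genes encode homeodomain transcription factors that give cells along the head to tail axis their position. Genes at the 3′ end of a cluster, with low paralog numbers, are switched on early and far forward, in the hindbrain, while genes at the 5′ end come on later and further back, along the spinal cord. Retinoic acid is known to activate 3′ genes, and FGF signals together with Cdx factors to activate more 5′ genes. In spinal motor neurons the Hox genes present set the subtype and the muscle that is innervated.

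Promoter windows were at hand for 2 of the 9 genes, from RefSeq on build GRCm38.p6, each running from 250 bases before to 50 bases after the gene start, 5′ to 3′ on the gene's strand. They are shown because Hoxb4 was among the members that changed most between the day 5 cultures, while Hoxb1 stayed near the bottom of the scale. Hoxb1 lies at chr11:96365508-96365807 (+ strand) and Hoxb4 at chr11:96318017-96318316 (+ strand). Capitals mark matches to TGATNNAT, a form of the Hox and Pbx site.
Hoxb1: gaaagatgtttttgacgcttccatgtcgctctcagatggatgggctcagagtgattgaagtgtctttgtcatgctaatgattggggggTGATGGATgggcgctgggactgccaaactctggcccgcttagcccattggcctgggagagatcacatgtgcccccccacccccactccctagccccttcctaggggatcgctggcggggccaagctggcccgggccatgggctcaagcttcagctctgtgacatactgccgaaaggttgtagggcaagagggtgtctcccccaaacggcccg
Hoxb4: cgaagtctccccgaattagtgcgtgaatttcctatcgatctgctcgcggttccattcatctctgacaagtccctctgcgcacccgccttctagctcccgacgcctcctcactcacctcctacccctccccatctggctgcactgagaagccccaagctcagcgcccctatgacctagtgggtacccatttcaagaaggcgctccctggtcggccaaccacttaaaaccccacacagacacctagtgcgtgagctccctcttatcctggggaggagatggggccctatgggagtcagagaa

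The search covered both strands of the 2 windows. TGATNNAT was found once, at position 89 of the Hoxb1 window counted from its 5′ end, and occurs in 8.86% of 32817 promoter windows of the same length. CAATAAA and CCATAAA, forms of the Cdx site, were in neither window, and occur in 4.60% and 2.75% of all windows. A retinoic acid receptor site, taken as GGTCA repeated in the same direction with NNNNNN between the copies, was in neither, against 0.101% of all windows. A match is only a run of letters, and the absence of one concerns these 300 bases alone.

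Levels are the deposited log2 values per probe set, which ran from a floor of 2.17 upwards. A reading of 4 was taken as the limit of detection. Levels of different probe sets are not comparable, so each statement on a level concerns 1 probe set across groups. Between arrays of a group the correlation over all probe sets was 0.998 in Cdx2 and FGF cultures, 0.995 to 0.997 in motor neuron cultures and 0.963 to 0.973 in ES cells. Control probe sets set the ES arrays apart. The 3′ probe set of 18S ribosomal RNA read 15.32 to 15.42 in Cdx2 and FGF cultures, 15.45 to 15.51 in motor neuron cultures and 5.86 to 6.60 in ES cells (exact two-sided permutation p = 0.1 for each day 5 group against ES cells, the smallest that 3 arrays against 3 can give). For Actb the 3′ minus the 5′ reading was 1.87 to 2.30 in ES cells. It was -0.10 to -0.01 in Cdx2 and FGF cultures and -0.05 to -0.03 in motor neuron cultures. For Gapdh it was 0.63 to 1.05 in ES cells, 0.51 to 0.54 in Cdx2 and FGF cultures and 0.59 to 0.65 in motor neuron cultures. The ES and motor neuron arrays thus overlapped for Gapdh. The part of these differences in the comparisons with ES cells was not tested. Markers of ES cells and of motor neurons went with the labels as far as detected. Markers of neurons in general (pan-neuronal) set ES cells apart less clearly. Of 6 such markers, 5 were over 4 on all 3 arrays in ES cells (mean level 7.76 to 8.37), and 6 in each day 5 group. Of 7 ES cell markers, 1 was over 4 on all 3 arrays in each day 5 group, against 7 in ES cells. Of 8 motor neuron markers, 4 were over 4 on all 3 arrays in Cdx2 and FGF cultures, 5 in motor neuron cultures and 2 in ES cells, while Chat and Slc5a7, genes of the cholinergic transmitter, lay under 4 in every group.

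**Figure D1:**
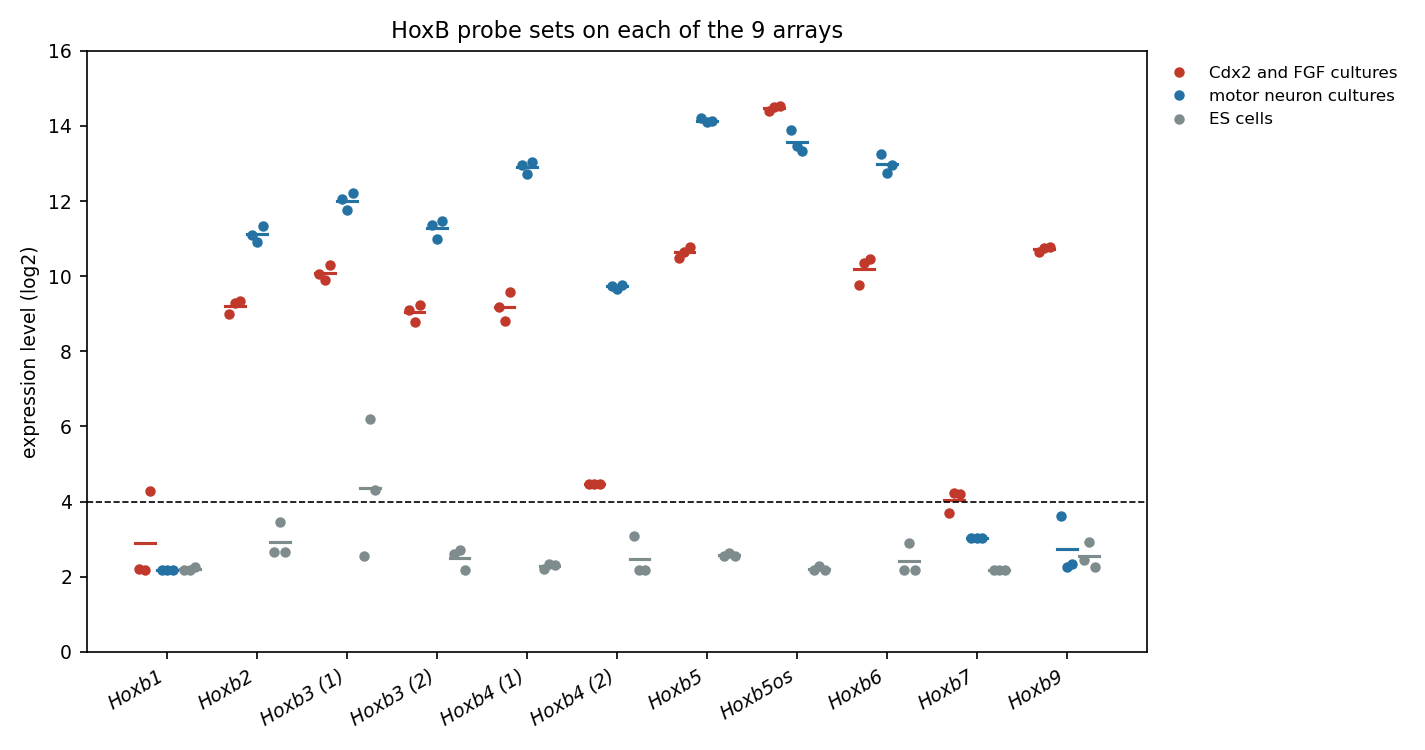
Expression level (log2) of the 11 HoxB probe sets in Cdx2 and FGF cultures (red), motor neuron cultures (blue) and ES cells (grey), with 1 point per array and a bar at the group mean; the dashed line marks 4, and numbers in brackets tell the first and second probe set of Hoxb3 and Hoxb4 apart. Hoxb2 to Hoxb6 were highest in motor neuron cultures, Hoxb5os was highest in Cdx2 and FGF cultures and Hoxb9 was over 4 on the Cdx2 and FGF arrays and on none of the others.

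The first comparison asked how HoxB genes differed when Cdx2 was induced and FGF given during motor neuron differentiation. Coding genes from Hoxb2 to Hoxb6 were lower in Cdx2 and FGF cultures than in motor neuron cultures, by 3.74-fold to 38.4-fold. The 38.4-fold came from the second Hoxb4 probe set, which read 4.47 on each Cdx2 and FGF array, near the limit of 4. The first Hoxb4 probe set gave 13.2-fold. Hoxb9 was higher in Cdx2 and FGF cultures by at least 106-fold. Hoxb5os, the antisense transcript, did not fall with the coding genes that it overlaps. Of the 11 probe sets, 9 passed the filter on low values (over 4 on at least 3 of 9 arrays), and 6 of these were called lower, 1 higher and 2 neither, at an adjusted p under 0.05 and a log2 difference of at least 1 in limma's fit across 21523 probe sets. Over all tested probe sets, 8.57% were called lower and 10.9% higher. The median log2 difference was -2.23 over the 9 HoxB probe sets and 0.04 over all tested ones. Fewer cells of a type and less RNA per cell cannot be told apart in such cultures.

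Hoxb2, which acts in patterning of the hindbrain, read 8.99, 9.30 and 9.34 in Cdx2 and FGF cultures, against 11.09, 10.90 and 11.35 in motor neuron cultures. The arrays of the 2 groups did not overlap. Hoxb2 was 3.74-fold lower (log2 difference -1.90, SE 0.27, limma adjusted p = 0.000782).

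Hoxb3, a paralog that shapes the caudal hindbrain, was measured by 1456229_at and 1427605_at. The first read 10.06, 9.90 and 10.29 in Cdx2 and FGF cultures, against 12.05, 11.77 and 12.21 in motor neuron cultures. The second read 9.09, 8.79 and 9.24 in Cdx2 and FGF cultures, against 11.35, 10.98 and 11.47 in motor neuron cultures. Both were lower on every Cdx2 and FGF array than on any motor neuron array. The second was called (log2 difference -2.23, SE 0.25, limma adjusted p = 0.000157). The first differed by -1.92 with a larger SE of 0.73 and was not called (limma adjusted p = 0.0798). Its ES arrays ranged from 2.55 to 6.21 and entered the shared estimate of the spread. Fitted on the 6 arrays compared it was called at the same difference (limma adjusted p = 0.000461), as it was without ES replicate 1 (0.0106) or ES replicate 2 (0.00823), and over all alternatives the limma adjusted p ran from 0.000213 to 0.257.

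Hoxb4, which marks the caudal hindbrain and anterior spinal cord, was measured by 1460379_at and 1451761_at. The first read 9.17, 8.80 and 9.59 in Cdx2 and FGF cultures, against 12.95, 12.72 and 13.05 in motor neuron cultures. It was 13.2-fold lower (log2 difference -3.72, SE 0.23, limma adjusted p = 4.65e-06). The second read 4.47 on each Cdx2 and FGF array, against 9.75, 9.67 and 9.78 in motor neuron cultures, and was 38.4-fold lower (log2 difference -5.26, SE 0.28, limma adjusted p = 1.55e-06). Those 3 readings of 4.47 were identical to 4 decimals, as were those of 1.72% of tested probe sets at readings over 4 in this group, so they carry no measured spread.

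Hoxb5, a gene of the cervical and brachial spinal cord and of the enteric nervous system, read 10.48, 10.65 and 10.79 in Cdx2 and FGF cultures, against 14.20, 14.10 and 14.12 in motor neuron cultures. Each Cdx2 and FGF array was far below the motor neuron arrays, whose SD was 0.06. The drop was 11.3-fold (log2 difference -3.50, SE 0.15, limma adjusted p = 5.93e-07).

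Hoxb6, a paralog expressed in the spinal cord and in the lateral mesoderm, read 9.76, 10.36 and 10.45 in Cdx2 and FGF cultures, against 13.25, 12.75 and 12.95 in motor neuron cultures. The groups again did not overlap. Hoxb6 was 6.93-fold lower (log2 difference -2.79, SE 0.28, limma adjusted p = 9.13e-05).

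Hoxb5os read 14.40, 14.51 and 14.52 in Cdx2 and FGF cultures, against 13.90, 13.45 and 13.32 in motor neuron cultures. Every Cdx2 and FGF array was above every motor neuron array. The log2 difference was 0.92 (95% interval 0.53 to 1.30, limma adjusted p = 0.00343), under the threshold of 1, and it was called at 1.09 without motor neuron replicate 1 (limma adjusted p = 0.00201, against 4.07e-05 to 0.0228 over all alternatives). Hoxb5os and Hoxb5 were compared within each array, a contrast chosen after the values were seen. The Hoxb5os reading minus the Hoxb5 reading was 3.92, 3.87 and 3.73 in Cdx2 and FGF cultures, against -0.30, -0.64 and -0.80 in motor neuron cultures. This difference was 4.42 higher in Cdx2 and FGF cultures (exact two-sided permutation p = 0.1, the smallest possible with 3 against 3). Against Hoxb6 the same measure was 4.64, 4.16 and 4.07 in Cdx2 and FGF cultures, and 0.66, 0.71 and 0.36 in motor neuron cultures, which is 3.71 higher (exact two-sided permutation p = 0.1). The 95% interval of the Hoxb5os change, 0.53 to 1.30, did not overlap those of Hoxb5 (-3.85 to -3.15) and Hoxb6 (-3.43 to -2.15). The sign of a single reading difference has no meaning between probe sets. Whether the labelling kept the strand is not stated in the labels, and reads of the overlapping genes are separated here only by probe design.

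**Figure D2:**
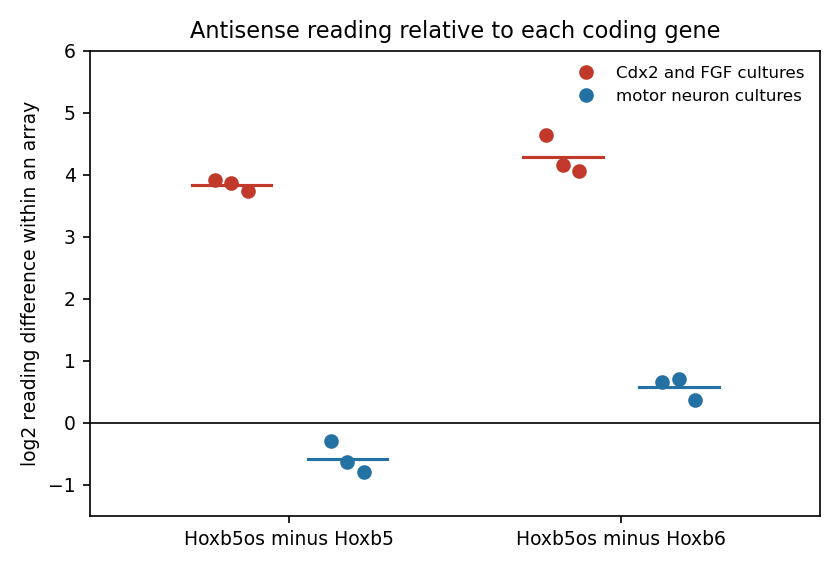
Hoxb5os reading minus the reading of Hoxb5 or of Hoxb6 within an array (log2), for Cdx2 and FGF cultures (red) and motor neuron cultures (blue), with 1 point per array and a bar at the mean. The Cdx2 and FGF arrays lie between 3.73 and 4.64 and the motor neuron arrays between -0.80 and 0.71; only the shift between groups is comparable, not the position of zero.

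The probe sets of Hoxb9 and of Hoxb7 alone went the other way or were near the limit of detection. Hoxb9, a gene of thoracic levels, read 10.65, 10.75 and 10.79 in Cdx2 and FGF cultures, against 3.60, 2.27 and 2.35 in motor neuron cultures. No motor neuron array reached 4, so the rise is given as at least 106-fold, with values under 4 raised to 4 (fitted log2 difference 7.99, SE 0.37, limma adjusted p = 7.17e-07). Since the Cdx2 and FGF arrays alone carried Hoxb9 past the filter, a call could go in no other direction. Hoxb7, a gene expressed in the spinal cord, read 3.69, 4.22 and 4.21 in Cdx2 and FGF cultures, against 3.02 on each motor neuron array. It did not pass the filter, as 2 arrays exceeded 4. A probe set annotated to both Hoxb8 and Hoxb7, outside the members, had high readings in both groups. It averaged 11.24 in Cdx2 and FGF cultures, against 12.55 in motor neuron cultures, and was thus lower (log2 difference -1.31). Hoxb1, the most 3′ gene and a marker of the hindbrain, was under the limit on 8 of 9 arrays. It read 2.21, 2.18 and 4.27 in Cdx2 and FGF cultures, against 2.18, 2.18 and 2.17 in motor neuron cultures, so the 1 array over 4 stood alone.

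Among the called coding genes the size of the fall was not the same. The 95% intervals of the log2 difference were -2.52 to -1.29 for Hoxb2 and -2.79 to -1.67 for the second Hoxb3 probe set. They were -4.25 to -3.19 and -5.89 to -4.64 for the 2 Hoxb4 probe sets, -3.85 to -3.15 for Hoxb5 and -3.43 to -2.15 for Hoxb6. The intervals of Hoxb2 and of the second Hoxb3 probe set did not overlap those of Hoxb4 and Hoxb5. That of the first Hoxb3 probe set, not called, was -3.57 to -0.28 and overlapped those of the first Hoxb4 probe set and Hoxb5. The intervals of the 2 Hoxb4 probe sets, which target 1 gene, did not overlap each other either. That of the second rests on the spread of the other groups and limma's shared estimate, as its Cdx2 and FGF readings were identical. The log2 differences of -3.72 and -5.26 show that the size also depended on the probe set.

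**Figure D3:**
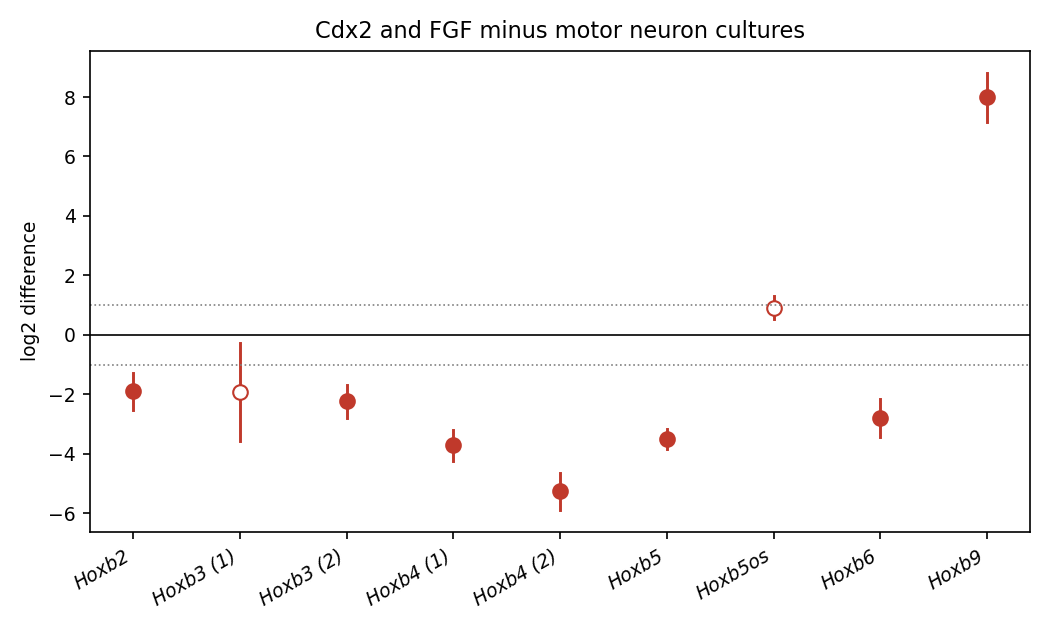
Log2 difference of Cdx2 and FGF cultures minus motor neuron cultures for the 9 tested HoxB probe sets, with 95% intervals from the limma fit; filled points were called and open points were not, and dotted lines mark 1 and -1. Hoxb2 to Hoxb6 lie below zero, from -1.90 to -5.26, Hoxb5os at 0.92 and Hoxb9 at 7.99, a fitted value against motor neuron readings under 4.

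Genes of the other clusters are set beside the HoxB members by paralog number. The shares over all tested probe sets were 8.57% called lower and 10.9% higher in Cdx2 and FGF cultures. Of 13 tested probe sets of paralogs 1 to 5 in clusters A, C and D, 13 were lower in Cdx2 and FGF cultures, with a median log2 difference of -3.68. The 6 tested HoxB coding probe sets of paralogs 1 to 5 had a median of -2.87, with 5 called lower. Named by size were Hoxa4, Hoxc5, Hoxd3 (-4.46) and Hoxa5 (-3.72). One Hoxa4 probe set, under 4 on 2 of 3 Cdx2 and FGF arrays, fell by 6.42 with low values raised to 4, and the other fell by 3.68. One Hoxc5 probe set was at least 69.0-fold lower, being under 4 on all Cdx2 and FGF arrays. Of 11 tested probe sets of paralogs 6 to 9, 10 were called higher and the other 1 was not called, at a median log2 difference of 5.55, or 5.41 with low values raised to 4. Motor neuron arrays were all under 4 for 9 of the 10, and 6 passed the filter through the Cdx2 and FGF arrays alone, so that their direction was fixed and the count is no evidence by itself. As lower bounds, Hoxc8 was at least 202-fold, Hoxa9 at least 143-fold, Hoxc9 at least 71.9-fold and Hoxd9 at least 57.7-fold higher in Cdx2 and FGF cultures. Hoxc6 and Hoxa7 are named here after their values were seen, as the nearest counterparts of Hoxb6 and Hoxb7. Hoxc6 rose in 2 of 3 probe sets, by at least 3.17-fold and at least 3.18-fold, and the other differed by 0.06 on the log2 scale without a call. For Hoxa7 the mean was 7.08 in Cdx2 and FGF cultures, against 3.38 in motor neuron cultures. Of paralogs 10 to 13, 2 of 11 probe sets were tested, 1 each of Hoxc13 and Hoxd13, and both averaged 2.17 in either day 5 group. These 2 had passed the filter through the ES arrays alone. Hoxc10 and Hoxa10, not tested, are named after their values were seen. Hoxc10 averaged 4.52 in Cdx2 and FGF cultures, against 2.21 in motor neuron cultures. One Hoxa10 probe set averaged 3.02 in Cdx2 and FGF cultures, against 2.17 in motor neuron cultures, and the other 2.17 in both. Hoxb13, the gene beyond Hoxb9, averaged 2.22 in both day 5 groups and was not tested.

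**Figure D4:**
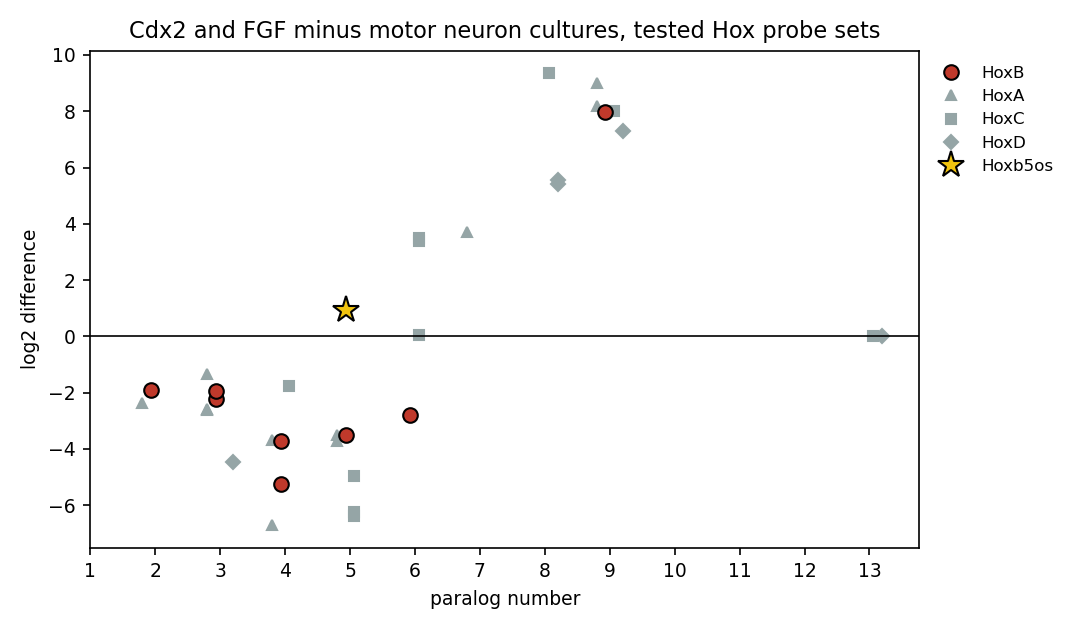
Log2 difference of Cdx2 and FGF cultures minus motor neuron cultures by paralog number, with 1 point per tested probe set; HoxB coding genes are red circles, Hoxb5os is a star, and HoxA, HoxC and HoxD genes are grey triangles, squares and diamonds, shifted sideways by cluster. HoxB genes up to paralog 6 lie below zero, as do the other clusters up to paralog 5, while Hoxb9 and the paralog 9 genes of the other clusters lie above it; all of these were under 4 in motor neuron cultures, so their heights are fitted values against background and have no order.

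Genes next to the cluster were compared as well. Of 17 tested probe sets among 13 flanking genes, 1 was higher and 1 lower, near the shares of 10.9% and 8.57% over all tested probe sets, and the median log2 difference was 0.04. These were Copz2, a coat protein gene, at 2.88 (limma adjusted p = 0.000266), and Snx11, a sorting nexin gene, at -1.88 (limma adjusted p = 0.00152). Among 33 tested probe sets of known HoxB regulators and Hox cofactors 10 were higher and 4 lower. Of these 14 calls, 4 were against a group under 4 on all its arrays. Through the Cdx2 and FGF arrays alone 2 probe sets passed the filter, so their direction was fixed. Some of the higher probe sets shared a gene, such as those of Nr6a1, and Cdx2 was itself the induced gene. Cdx2 read 8.27, 8.99 and 8.59 in Cdx2 and FGF cultures, against 2.17, 2.17 and 2.24 in motor neuron cultures. The related Cdx4 read 5.31, 6.06 and 5.46 in Cdx2 and FGF cultures, and 2.17 on each motor neuron array. Pbx3, a cofactor of Hox proteins, fell by 4.14 on the log2 scale. Rarg, a retinoic acid receptor gene, rose by 2.87, or by 2.64 with low values raised to 4. It was under 4 on 2 of the motor neuron arrays. The receptor genes Rara and Rarb, named after their values were seen, went the other way and were called lower (log2 differences -1.29 and -1.89).

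Marker levels of several cell types also differed between the day 5 groups, while those of endoderm overlapped. The mean level of 6 pan-neuronal markers was 8.82 to 9.25 on the Cdx2 and FGF arrays, against 12.99 to 13.46 on the motor neuron arrays. That of 8 motor neuron markers was 5.40 to 5.49 in Cdx2 and FGF cultures, against 7.65 to 8.35 in motor neuron cultures. Of 8 paraxial mesoderm markers 4 were over 4 on all Cdx2 and FGF arrays (mean level 5.64 to 5.79), against 1 on the motor neuron arrays (2.77 to 2.88), with Tbx6, Msgn1, Meox2 and Pax1 under 4 in both. For smooth muscle it was 3 of 4 markers (8.92 to 9.01) in Cdx2 and FGF cultures, against 0 (2.48 to 3.72) in motor neuron cultures, with Myh11 under 4 in both. Fibroblast markers over 4 on all arrays numbered 6 of 11 (4.98 to 5.13) in Cdx2 and FGF cultures, against 0 (2.48 to 2.51) in motor neuron cultures, with Dcn, Lum, Postn, Thy1 and Fbln2 under 4 in both. For neural crest it was 2 of 6 (4.42 to 4.56) in Cdx2 and FGF cultures, against 0 (2.32 to 2.69) in motor neuron cultures, with Sox10, Foxd3, Tfap2a and Tfap2b under 4 in both. Of 6 endoderm markers 1 was over 4 (4.21 to 4.59) in Cdx2 and FGF cultures, against 2 (4.002 to 4.32) in motor neuron cultures, with Sox17, Gata4 and Afp under 4 in both. The part of these cell types in the HoxB differences was not tested.

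The second comparison asked how HoxB genes differed after 5 days of differentiation with retinoic acid and hedgehog agonist alone. Hoxb2, Hoxb4, Hoxb5, Hoxb5os and Hoxb6 were under 4 on all ES arrays and far above it in motor neuron cultures, as was the second Hoxb3 probe set, while the first was over 4 on 2 ES arrays. Hoxb9 was under 4 in both. Of the 9 tested probe sets 8 were called higher and 0 lower, where 31.9% of all tested probe sets were called higher and 27.9% lower. Apart from the first Hoxb3 probe set, these passed the filter through the day 5 arrays and were under 4 in ES cells, so a call could only be higher, and the count and median are no evidence by themselves.

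Hoxb5, at 14.20, 14.10 and 14.12 in motor neuron cultures, read 2.56, 2.63 and 2.56 in ES cells and was thus at least 1129-fold higher in motor neuron cultures (log2 difference 11.56, SE 0.15, limma adjusted p = 5.94e-10). Hoxb5os read 2.17, 2.30 and 2.17 in ES cells and was at least 754-fold higher in motor neuron cultures (log2 difference 11.35, limma adjusted p = 9.16e-10). The rise of Hoxb6 was at least 506-fold over ES readings of 2.17, 2.89 and 2.19, and that of Hoxb2 at least 138-fold over 2.65, 3.45 and 2.66. For Hoxb4 the 2 probe sets gave at least 480-fold and at least 53.1-fold, over ES readings of 2.20 to 2.33 and of 2.17 to 3.09. These bounds follow from the motor neuron reading of each probe set and are not comparable with each other.

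Hoxb3 was the member with measurable readings in ES cells. Its probe set 1456229_at read 2.55, 6.21 and 4.32 there, over 4 on 2 of 3 arrays, while 1427605_at read 2.60, 2.71 and 2.17. The second was at least 154-fold higher in motor neuron cultures (log2 difference 8.78, SE 0.25, limma adjusted p = 5.85e-09). The first had a log2 difference of 7.65 (SE 0.73, limma adjusted p = 1.04e-05), which was 6.75 without ES replicate 1 and 8.57 without ES replicate 2. The ES cells had been grown on fibroblasts, and 0 of 11 fibroblast markers were over 4 on all motor neuron arrays (mean level 2.48 to 2.51), against 4 on all ES arrays (4.83 to 6.39), with Lum under 4 on all of them. The part of these cells in the Hoxb3 readings was not tested.

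Hoxb9 averaged 2.74 ± 0.75 in motor neuron cultures and 2.55 ± 0.34 in ES cells (SD, n = 3), and these arrays overlapped (log2 difference 0.19, limma adjusted p = 0.652). Hoxb7 read 3.02 on each motor neuron array and 2.17 on each ES array, identical to 4 decimals within a group, and under 4 on all of them. Hoxb1 was 2.17 to 2.18 in motor neuron cultures and 2.18 to 2.26 in ES cells, at the bottom of the scale in both.

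The other clusters and the surroundings are set beside these. Over all tested probe sets, 31.9% were called higher and 27.9% lower in motor neuron cultures than in ES cells. Of the 13 probe sets of paralogs 1 to 5 in clusters A, C and D, 13 were higher in motor neuron cultures than in ES cells, of which 10 were under 4 on all ES arrays, so that their direction was fixed and their sizes are bounds. Of the 11 of paralogs 6 to 9, 1 was higher and 3 were lower in motor neuron cultures. Hoxc8 was at least 10.4-fold and Hoxd9 at least 6.09-fold lower, at ES levels of 7.37 and 6.61. The probe sets of Hoxd8 went opposite ways, with means of 3.10 in motor neuron cultures and 5.16 in ES cells for the lower one, and of 4.89 in motor neuron cultures and 3.00 in ES cells for the higher one. Flanking genes of the HoxB cluster had 2 of 17 probe sets higher and 4 lower, with a median of -0.26. Regulators and cofactors had 20 of 33 higher and 4 lower, and 9 of these 24 calls were against a group under 4 on all its arrays. With low values raised to 4, the cofactor gene Meis3 was 6.91 and the retinoic acid receptor gene Rara 6.89 higher on the log2 scale, each over 4 on 1 ES array. One probe set each of the cofactor gene Meis2 and the nuclear receptor gene Nr6a1 was higher by at least 7.97 and at least 5.92 on the log2 scale, and another of each was called lower.

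The third comparison, of Cdx2 and FGF cultures with ES cells, shares its arrays with the other two and gives the net difference. Of the 9 tested probe sets 9 were called higher and 0 lower, against 31.4% of all tested probe sets called higher and 24.7% lower; as before, these members had little room to be lower. Hoxb5os and Hoxb9 were at least 1426-fold and at least 106-fold higher in Cdx2 and FGF cultures than in ES cells. Hoxb5, Hoxb6 and the first Hoxb4 probe set, although lower than in motor neuron cultures, were still at least 99.6-fold, at least 73.1-fold and at least 36.4-fold higher than in ES cells. The second Hoxb4 probe set, at 4.47 on each Cdx2 and FGF array, had a log2 difference of 2.00 from ES cells (limma adjusted p = 0.00015), which fell to 0.47 with low values raised to 4 and was then not called (limma adjusted p = 0.0219, the highest over all alternatives, the lowest being 1.26e-05).

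The order of the mean readings was the same for Hoxb2, Hoxb4, Hoxb5, Hoxb6 and the second Hoxb3 probe set. Motor neuron cultures were highest, Cdx2 and FGF cultures next and ES cells lowest. The upper step, between the day 5 groups, was called for each. All were under 4 on every ES array, so a call of the lower step could go in no other direction and is no evidence by itself. For the second Hoxb4 probe set that call was lost with low values raised to 4. For the first Hoxb3 probe set the upper step was not called in the fit of 9 arrays. Hoxb5os had Cdx2 and FGF cultures and motor neuron cultures as neighbours whose arrays did not overlap, with a difference under the threshold. Hoxb9 was high in Cdx2 and FGF cultures, while its levels in motor neuron cultures and ES cells did not differ beyond their spread.

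Other genes had patterns close to those of Hoxb5 and Hoxb9 over the 9 arrays. Likeness was the root mean square distance between profiles centred on their own means, over 19040 tested probe sets with 1 named gene outside the Hox clusters, and it mainly reflects the 3 group means. Nearest to Hoxb5 were Map1b, a microtubule protein gene of axons, at a distance of 0.66, then Elavl4, a neuronal RNA-binding protein gene (0.86), Tagln3 (0.86), Hes5, a Notch target (0.89), and Pantr1, a non-coding RNA gene (0.90). Map1b averaged 11.11 in Cdx2 and FGF cultures, 13.01 in motor neuron cultures and 2.19 in ES cells. Nearest to Hoxb9 were Meox1, a paraxial mesoderm homeobox gene (0.52), Ptn, a growth factor gene (0.63), P3h2, a collagen hydroxylase gene (0.67), Foxc1, a forkhead gene of mesoderm (0.75), and Cldn11, a tight junction gene (0.77). Meox1 averaged 10.95 in Cdx2 and FGF cultures and 2.17 in each of the other groups.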

How the data were processed

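The authors deposited log2 expression levels per probe set for 9 arrays. Their processing notes name GCRMA and limma, and neither versions nor options are given in the sources used here. A NuGEN Ovation kit amplified the RNA, per the labels' protocols. That the values are log2 was judged from their range, and no further normalization was applied. In the platform annotation 34958 probe sets had 1 symbol, 932 several and 9211 none.

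Group means of the 9 arrays were fitted in limma 3.58.1 (R 4.3.3, eBayes with an intensity trend, 6 residual degrees of freedom) for 21523 probe sets over 4 on at least 3 arrays, without 64 controls. Benjamini-Hochberg adjustment ran over all of these, and a call needed an adjusted p under 0.05 and a log2 difference of at least 1. Where a group lay under 4 on all arrays, its values were raised to 4 and the fold is a lower bound. The number of arrays limits the precision. In data simulated for Cdx2 and FGF against motor neuron cultures over 21523 probe sets, 76 of 100 changes of 2 and 98 of 100 of 4 (log2) were recovered, with 3 false calls. The simulated probe sets had starting means well above 4 and the same spread in all groups, averaged over the 3 groups. The median SD within a group was 0.40 in ES cells, 0.12 in Cdx2 and FGF cultures and 0.16 in motor neuron cultures. The recovery therefore covers neither probe sets with readings near the floor nor the smaller spread of the day 5 groups.

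Members and lists were chosen with earlier results of these data known. The text names each member, the 5 genes nearest in pattern to Hoxb5 and to Hoxb9, and up to 4 called genes of a list by size. Hoxc6, Hoxa7, Hoxc10, Hoxa10, Rara and Rarb were added after their values were seen. Replicate numbers showed no strong pairing of the arrays (correlations of deviations -0.03 to 0.11, over 0.1 in 1 of 9 pairs). Alternatives were other normalizations, filters, weights, units of testing, a replicate block and leaving out each array.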

Additional observations from a re-analysis of the deposited data

Results flagged for a closer look

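A probe set outside the members, annotated to both Hoxb8 and Hoxb7, carried a signal above ES cells. It was counted with the members in no comparison, since its reading cannot be assigned to 1 gene. It read 10.97, 11.27 and 11.49 in Cdx2 and FGF cultures, 12.95, 12.32 and 12.39 in motor neuron cultures (mean 12.55), and 2.17, 2.26 and 2.17 in ES cells. It was lower in Cdx2 and FGF cultures than in motor neuron cultures (log2 difference -1.31, SE 0.23, limma adjusted p = 0.00239), whereas the probe set of Hoxb7 alone read 3.69 to 4.22 in Cdx2 and FGF cultures and 3.02 on each motor neuron array.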

How the results depend on the processing

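The 6 calls of lower HoxB probe sets in Cdx2 and FGF against motor neuron cultures came to 6 or 7 without any single array. The count of higher ones was 1, and 1 to 2 when single arrays were left out (2 without motor neuron replicate 1); it was 2 without the filter, through Hoxb7 (log2 difference 1.02, limma adjusted p = 0.00412), and 2 with no minimum difference, through Hoxb5os. Against ES cells the counts of 8 (motor neuron cultures) and 9 (Cdx2 and FGF cultures) stayed within 1.5 times under each alternative. The difference of Hoxb9 between motor neuron cultures and ES cells, 0.19 and called under no alternative, was -0.018 with array weights, and ranged from -0.24 (without motor neuron replicate 1) to 0.43 without single arrays. Counts over the whole table changed by over 1.5 times when the unit was a gene. With the highest probe set per gene they were 1220 higher and 939 lower for Cdx2 and FGF against motor neuron cultures, 2826 and 3346 for motor neuron cultures against ES cells, and 2774 and 2971 for Cdx2 and FGF cultures against ES cells. With probe sets averaged per gene they were 1058 and 821, 2933 and 2518, and 2929 and 2102 in that order. With no minimum difference 3608 probe sets were higher in Cdx2 and FGF than in motor neuron cultures, against 2343 with it. The median over all tested probe sets was -0.07 after median centring and 0.14 before it for Cdx2 and FGF cultures against ES cells, -0.0087 and 0.10 for motor neuron cultures against ES cells, and -0.06 and 0.04 between the day 5 groups. With a replicate block the HoxB counts were 1 higher and 6 lower, 8 and 0, and 9 and 0, the same as without it; arrays correlated best with their own number in 4 of 6, 2 of 6 and 6 of 6 cases for the group pairs, at low correlations. Readings under 4 limit Hoxb1, Hoxb7 and all comparisons with ES cells. The cause of these changes was not tested, beyond the number of features tested.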
